A study of Mus musculus with 63 samples.

Results

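The dentate gyrus of lesioned mouse tissue cultures was compared between libraries labelled synaptopodin-deficient (Synpo-/-, 4 libraries) and wildtype libraries (Synpo+/+, 6 libraries), which together are 10 of the 63 libraries of the series. All 10 are RNA-seq libraries of dentate gyrus that was cut out with a scalpel from a single organotypic entorhino-hippocampal culture each, after entorhinal cortex lesion (ECL). The question was which autosomal genes differ between the genotypes once the tissue has been denervated. A seventh wildtype library of the same kind, replicate 5, was left out, so that the libraries were chosen by their measured level of Prox1, the transcription factor that marks dentate granule cells. Prox1 stood at 17.4 CPM (read counts scaled to a common library size) in that library, next to a lowest level of 197.6 CPM among the 6 wildtype libraries kept. The CA3 libraries of the series lay between 13.96 and 51.2 CPM.

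Both groups were denervated. Wildtype cultures came from C57BL/6J mice. The other cultures came from the line labelled B6.129-Synpotm1Mndl/Dllr, whose name gives a targeted Synpo allele with a donor strain other than C57BL/6, on a C57BL/6 background. Cultures of both were prepared at postnatal day 3 to 5 from mice of either sex and matured for at least 18 days before the perforant path was cut. Replicates are labelled as biological, but the labels do not say whether they came from separate animals, so p-values measure the spread between these libraries. The tissue holds every cell type of the dentate gyrus, and in such bulk samples more cells of a type and more RNA per cell cannot be told apart.

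Synaptopodin is an actin-associated protein of dendritic spines and of the axon initial segment. It is needed for the spine apparatus, a stack of smooth endoplasmic reticulum that serves as a calcium store and is found in large spines of forebrain neurons. The dentate gyrus receives its main excitatory input from the entorhinal cortex through the perforant path. When that path is cut, granule cells lose the synapses on their outer dendrites, while microglia take up the degenerating axons and astrocytes become reactive.

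Total counts ran from 19044938 to 31740658 in the 4 libraries labelled Synpo-/- and from 14055930 to 31953922 in the 6 wildtype libraries. Prox1 was at 208.6 to 241.8 CPM in the former and at 197.6 to 254 CPM in the latter. The summed level of 10 granule cell markers was 739 to 990.2 CPM and 662.8 to 881.4 CPM, and that of 7 CA3 markers 187.6 to 327.3 CPM and 268.5 to 331.1 CPM. As Prox1 chose the libraries, these levels are a description. Y-linked genes exceeded Xist in 2 of the 4 and in 3 of the 6 libraries. Log2 CPM values correlated across genes with r from 0.969 to 0.985 between libraries of the same genotype and from 0.969 to 0.983 between genotypes. Genes of choroid plexus and ependyma, which border the dentate gyrus, stood apart in 3 libraries. Their sum was 10060 CPM in Synpo-/- replicate 2, 7244 CPM in wildtype replicate 3 and 2667 CPM in wildtype replicate 1, and 18.2 to 168.8 CPM in the other 7.

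Few genes passed the test between the genotypes. Of 23218 autosomal genes tested, 8 were called (0.0345%), which means an adjusted p under 0.05 by Benjamini and Hochberg's method in the quasi-likelihood test of edgeR. The libraries labelled Synpo-/- were higher at 5 genes (0.0215%), namely 1500015A07Rik, Gm4841, Slc15a2, Ctla2a and Spp1. They were lower at 3 genes (0.0129%), Rnf168, Afap1l1 and Gm4951. With RLE size factors in place of TMM the split was 3 higher and 3 lower. At an unadjusted p under 0.05 there were 491 higher genes (2.11%) and 406 lower genes (1.75%). Together they were 897 genes, fewer than the 1160 expected by chance. Few calls thus do not show that few genes differ. The median log2 fold change over all genes was 0.01 and the median standard error 0.20, which was 0.11 over the 8433 genes with a mean normalized count over 300. DESeq2 called 12 genes, all 8 among them, and added Lgals3, Tmem74, Speer4cos and 2610005L07Rik, which are named here after their values were seen.

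**Figure D1:**
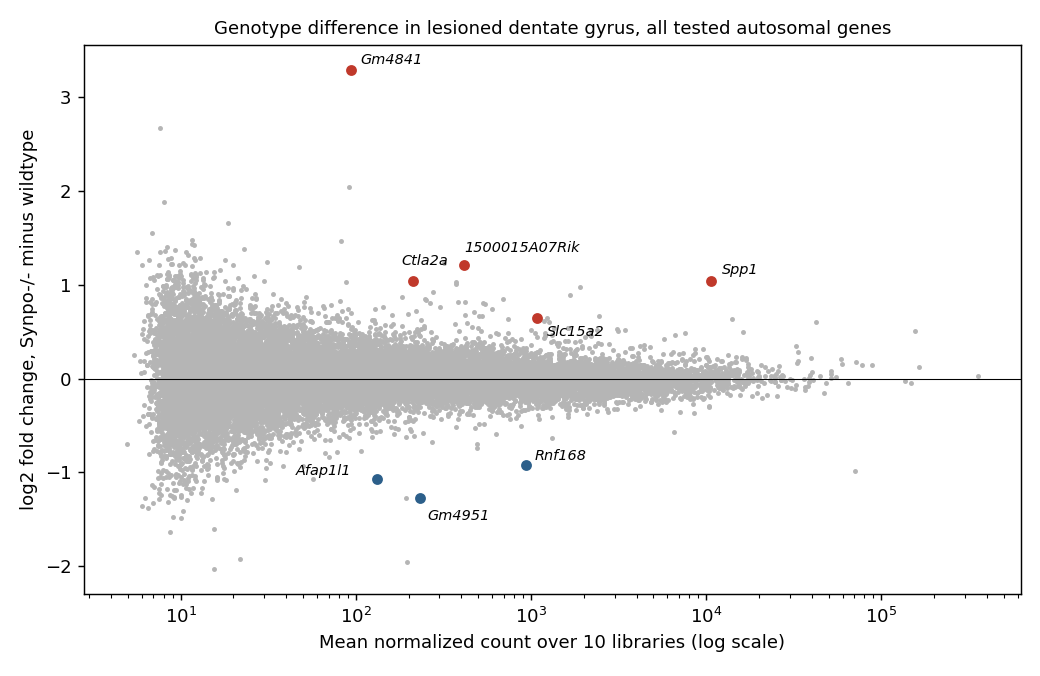
Log2 fold change (libraries labelled Synpo-/- minus wildtype, vertical axis) against the mean normalized count over 10 libraries (horizontal axis, log scale) for the 23218 autosomal genes tested in lesioned dentate gyrus. Red points are the 5 called genes that were higher and blue points the 3 that were lower; grey points are all other genes, and the largest called difference is that of Gm4841 at 3.29.

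Synpo itself, at chr18:60593973-60660142 on the minus strand of GRCm38, had no lower count in libraries labelled Synpo-/- than in wildtype. Its level in the former was 43.6, 47.2, 47.2 and 38.3 CPM in replicates 1 to 4. Wildtype libraries ranged from 26.6 CPM over a median of 32.3 CPM to 44.9 CPM. The groups overlapped, and the log2 fold change was 0.42 ± 0.12 (SE), with an adjusted p of 0.9995 in edgeR's test. Counts are summed over all exons of a gene, and which exons the allele lacks is not given in the sources used here. This count therefore checks neither the deletion nor the labels.

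Neighbours of Synpo on chromosome 18 held 4 of the 8 called genes. Within 1.5 Mb of the middle of Synpo, 4 of 31 tested genes were called (12.9%) and 9 had an unadjusted p under 0.05 (29%). Over the rest of chromosome 18 beyond 10 Mb, 0 of 477 genes were called by edgeR and 24 had an unadjusted p under 0.05 (5.03%). Over all other autosomes, 4 of 22595 genes were called (0.0177%) and 861 had an unadjusted p under 0.05 (3.81%). These windows were set with the called genes known and are given as counts.

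The smallest p belonged to 1500015A07Rik, an antisense transcript at chr18:61726390-61735917 on the plus strand. Its level was 28.1, 33.0, 28.1 and 31.2 CPM in replicates 1 to 4 labelled Synpo-/-, and it ranged from 9.35 CPM over a median of 13.2 CPM to 15.9 CPM in wildtype. All 4 libraries lay above all 6, and the log2 fold change was 1.22 ± 0.12 (SE; adjusted p = 0.000475, edgeR's quasi-likelihood test).

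On the opposite strand lies Afap1l1 (chr18:61730261-61786702), an adaptor protein that binds actin filaments and is found at podosome-like structures. It was lower, at 3.72, 3.00, 4.07 and 4.45 CPM in the libraries labelled Synpo-/-. Wildtype libraries ranged from 6.81 CPM over a median of 7.61 CPM to 9.5 CPM, so that here too the groups did not overlap. The log2 fold change was -1.07 ± 0.17 (SE; adjusted p = 0.0349, edgeR). Reads were counted without strand, so reads from the stretch that Afap1l1 and 1500015A07Rik share cannot be assigned to either. The call of Afap1l1 was lost in each of the 10 fits that left out a library, with an adjusted p of up to 0.405 over all alternatives, and its log2 fold change stayed between -1.16 and -0.989.

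Gm4841 and Gm4951 lie 0.356 Mb and 0.397 Mb from the middle of Synpo, in a cluster of similar genes for interferon-inducible GTPases, a family that defends cells against intracellular pathogens. Gm4841 (chr18:60268305-60273272, minus strand) was at 8.82, 5.02, 21.5 and 3.69 CPM in replicates 1 to 4 labelled Synpo-/-, and between 0.685 and 1.46 CPM in wildtype, with a median of 0.933 CPM. Every library labelled Synpo-/- was above every wildtype library, although these 4 spread widely among themselves. Its log2 fold change was 3.29 ± 0.41 (SE; adjusted p = 0.00256, edgeR).

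Gm4951 (chr18:60212080-60247820, plus strand) went the other way. It was at 6.43, 4.17, 9.08 and 4.30 CPM in replicates 1 to 4 labelled Synpo-/-, and at 12.4 to 19.6 CPM in wildtype with a median of 13.5 CPM. The groups did not overlap, with a log2 fold change of -1.27 ± 0.21 (SE; adjusted p = 0.0381, edgeR). Replicate 3 was the highest of the 4 at both genes. Other members of the cluster did not pass the test: F830016B08Rik gave -1.07 ± 0.35, the pseudogene BC023105 gave 1.47 ± 0.39 and Iigp1 gave -0.15 ± 0.34 (log2 fold change with SE, adjusted p = 0.9995 for each in edgeR). BC023105 was called without a filter on low counts, and F830016B08Rik without Synpo-/- replicate 3. Genes this alike can share reads, so the split of counts among them is uncertain.

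**Figure D2:**
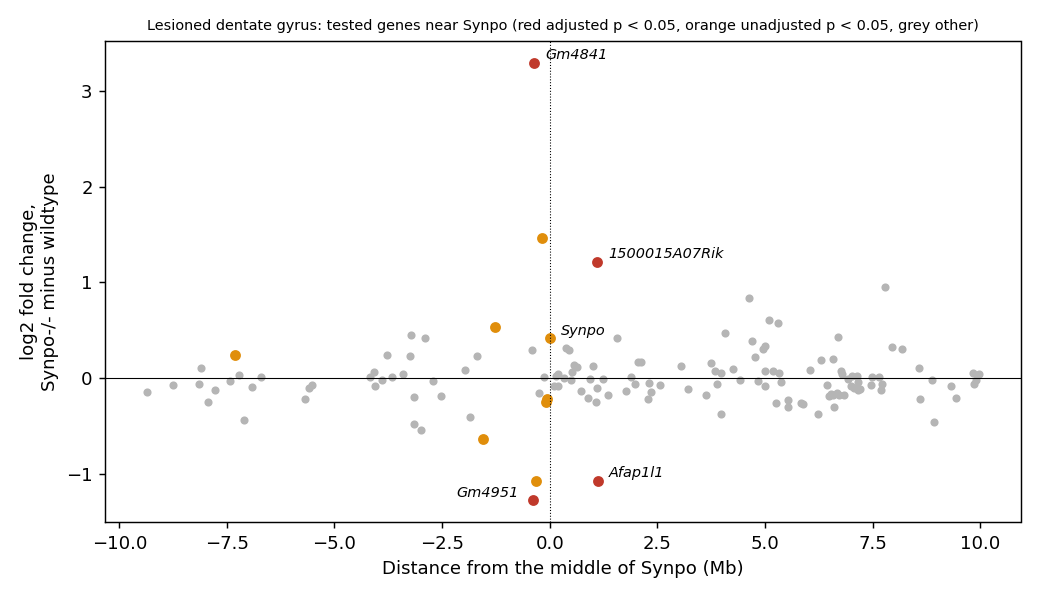
Log2 fold change in lesioned dentate gyrus (vertical axis, libraries labelled Synpo-/- minus wildtype) of the tested genes within 10 Mb of Synpo against their distance from its middle in Mb (horizontal axis). Red points are the 4 called genes, orange points have an unadjusted p under 0.05 only, and the 4 red points all lie within 1.5 Mb.

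The other 4 called genes are on chromosomes 5, 13 and 16. Their reference sequences just upstream of the transcription start are printed to show the promoters of the called genes that lie away from Synpo. They are RefSeq's GRCm38.p6 sequences, thus of C57BL/6J, with 250 bases 5′ to 3′ on the strand of the gene, for the start nearest to the deposited annotation. The windows are chr16:32277211-32277460 (plus strand) for Rnf168, chr16:36784963-36785212 (minus) for Slc15a2, chr13:60936626-60936875 (minus) for Ctla2a and chr5:104434861-104435110 (plus) for Spp1. Capitals mark matches on either strand to 4 short motifs, the TATA box (TATAAA), the GC box (GGGCGG), the CCAAT box (CCAAT) and the AP-1 site (TGACTCA).
Rnf168: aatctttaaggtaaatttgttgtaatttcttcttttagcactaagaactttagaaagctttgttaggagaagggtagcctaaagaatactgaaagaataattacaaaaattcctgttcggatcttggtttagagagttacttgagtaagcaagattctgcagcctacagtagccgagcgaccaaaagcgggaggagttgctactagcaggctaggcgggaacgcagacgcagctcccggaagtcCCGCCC
Slc15a2: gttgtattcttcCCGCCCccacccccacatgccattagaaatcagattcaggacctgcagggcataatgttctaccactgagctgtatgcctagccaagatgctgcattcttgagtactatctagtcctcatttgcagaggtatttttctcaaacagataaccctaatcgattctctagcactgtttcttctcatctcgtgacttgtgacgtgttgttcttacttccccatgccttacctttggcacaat
Ctla2a: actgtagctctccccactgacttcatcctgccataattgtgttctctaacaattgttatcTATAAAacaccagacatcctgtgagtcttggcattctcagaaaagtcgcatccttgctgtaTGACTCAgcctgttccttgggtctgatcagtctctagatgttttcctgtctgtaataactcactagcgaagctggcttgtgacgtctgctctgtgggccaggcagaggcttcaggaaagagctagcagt
Spp1: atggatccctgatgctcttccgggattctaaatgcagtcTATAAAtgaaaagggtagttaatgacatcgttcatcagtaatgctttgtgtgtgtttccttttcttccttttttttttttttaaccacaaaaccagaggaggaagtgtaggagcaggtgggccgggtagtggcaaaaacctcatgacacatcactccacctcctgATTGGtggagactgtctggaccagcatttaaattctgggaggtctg
The windows of Rnf168 and Slc15a2 held the GC box once each, that of Ctla2a the TATA box and the AP-1 site once each, and that of Spp1 the TATA box and the CCAAT box once each. Relative to the transcription start, the matches to TATAAA began at -190 in Ctla2a and at -211 in Spp1. Whether they work as TATA boxes was not tested. Over 32851 windows of the same length, 32.7% held the GC box, 33.8% the CCAAT box, 12.4% the TATA box and 4.46% the AP-1 site. No motif was shared by all 4 windows, and a match is a description of the letters alone.

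Rnf168 encodes a ubiquitin ligase that marks histone H2A around DNA double-strand breaks. The gene (chr16:32277459-32301434, plus strand) was at 30.7, 28.7, 31.4 and 25.3 CPM in the libraries labelled Synpo-/-. Wildtype libraries ranged from 47.5 CPM over a median of 52.7 CPM to 64.4 CPM. All 4 lay below all 6, and the log2 fold change was -0.92 ± 0.10 (SE; adjusted p = 0.000862, edgeR).

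Slc15a2, the oligopeptide transporter PEPT2 of astrocytes and choroid plexus epithelium, lies on the same chromosome (chr16:36750177-36784962, minus strand). It was higher, at 66.3, 60.02, 68.7 and 66.9 CPM in replicates 1 to 4 labelled Synpo-/-, compared with 36.1 to 52.5 CPM and a median of 39.9 CPM in wildtype. The groups did not overlap (log2 fold change 0.64 ± 0.10 SE; adjusted p = 0.0349, edgeR). In the 3 libraries with the most choroid plexus RNA it was at 60.02 CPM (Synpo-/- replicate 2), 41.3 CPM (wildtype replicate 3) and 36.1 CPM (wildtype replicate 1). The part of choroid plexus in this difference was not tested. Between Rnf168 and Slc15a2, over 4.51 Mb, edgeR called 0 of 50 tested genes and 2 had an unadjusted p under 0.05 (4%), and this stretch was chosen after the values were seen.

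Ctla2a, a gene for a protein similar to the propeptide of cathepsins (chr13:60934155-60936625, minus strand), was at 14.98, 10.6, 15.5 and 17.01 CPM in the libraries labelled Synpo-/-. Wildtype libraries ranged from 5.88 CPM over a median of 6.73 CPM to 9.6 CPM, below all 4. Its log2 fold change was 1.03 ± 0.17 (SE; adjusted p = 0.0372, edgeR). The annotation has a pair of overlapping genes on the same strand, Gm49393 and Gm49391, so the assignment of its reads is uncertain. Wildtype replicate 5 stood at 10.2 CPM, and with that library included the call was lost.

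Spp1, which encodes osteopontin, a secreted glycoprotein of phagocytic microglia and macrophages, had by far the most reads of the 8 (chr5:104435118-104441050, plus strand). Its level was 464.3, 973.4, 646.9 and 856.3 CPM in replicates 1 to 4 labelled Synpo-/-. Wildtype libraries ranged from 277.5 CPM over a median of 342.5 CPM to 470.6 CPM. The groups overlapped by a single pair of libraries, Synpo-/- replicate 1 and wildtype replicate 7. Its log2 fold change was 1.04 ± 0.17 (SE; adjusted p = 0.0411, edgeR). This call rested on the library set: of the 10 fits that each left out a library it was kept in 2, those without Synpo-/- replicate 1 or wildtype replicate 7, and over all alternatives the log2 fold change lay between 0.845 and 1.2 and the adjusted p reached 0.298.

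**Figure D3:**
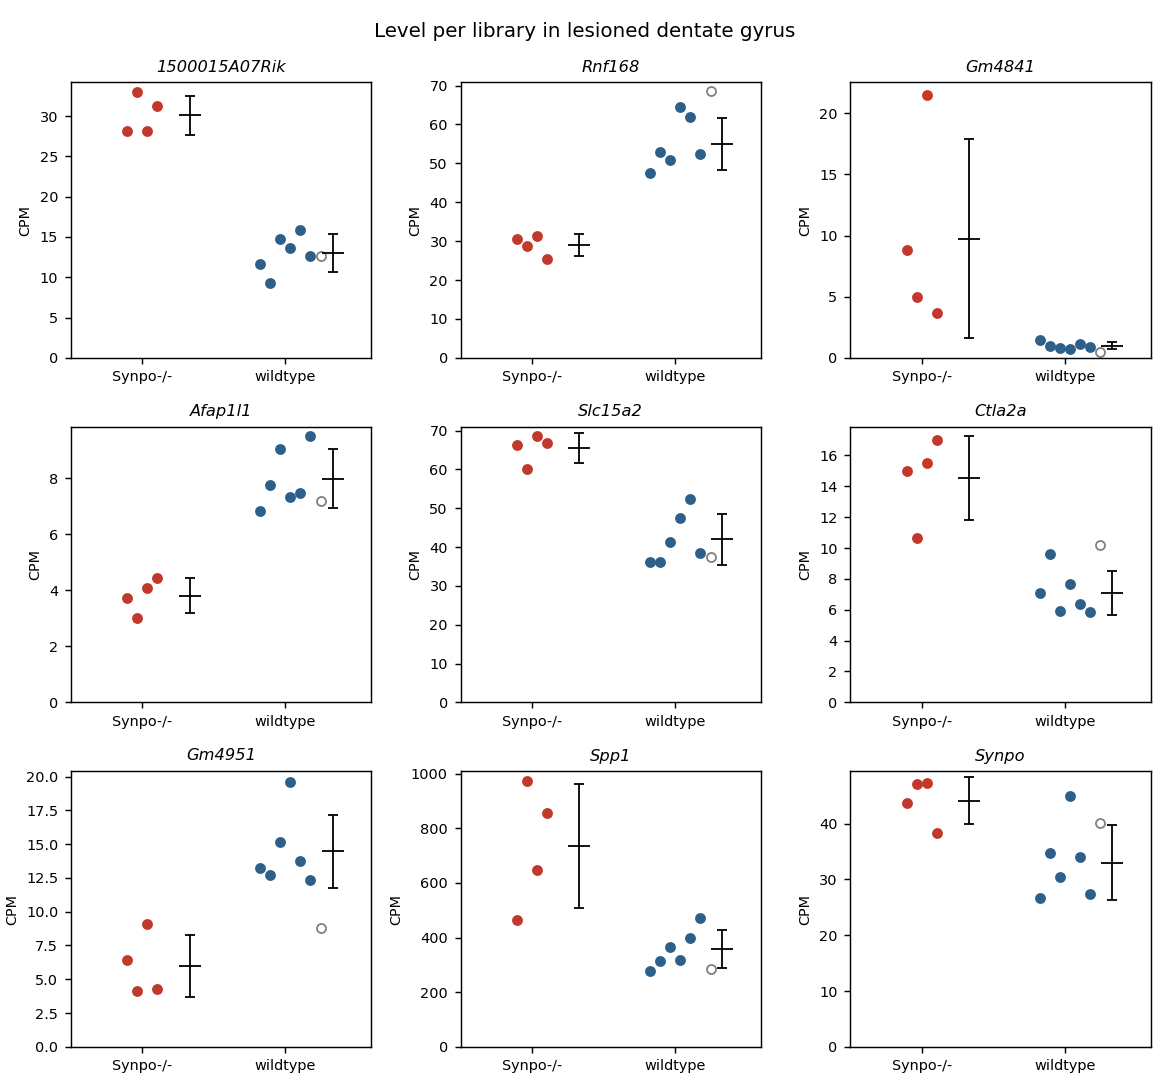
Level in CPM (vertical axes, from 0) of the 8 called genes and Synpo in each lesioned dentate gyrus library, with 4 libraries labelled Synpo-/- in red and 6 wildtype libraries in blue. Black bars are the mean and SD, and the open grey circle is wildtype replicate 5, which was left out; only at Spp1 and Synpo do red and blue points overlap.

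Genes that do not overlap between the groups were counted over the whole table as well. There were 112 such genes that were higher in the libraries labelled Synpo-/- (0.482%) and 87 that were lower (0.375%). Of the 8 called genes, 7 were among them.

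Next to Spp1, other genes of phagocytic microglia were looked at as a list of 22, which was written with earlier results of these data known. Spp1 was the 1 member called and 11 members, Spp1 included, were higher at an unadjusted p under 0.05, beside 2.11% of all genes. The median log2 fold change was 0.22, beside 0.01 over all genes, and all 22 values were above 0. In control dentate gyrus, lesioned CA3 and control CA3 the median of this list was 0.37, -0.002 and 0.51. Lgals3, the galectin of activated microglia, was at 69.5 ± 8.06 CPM (SD, n = 4) compared with 49.7 ± 4.34 CPM (n = 6), and its log2 fold change of 0.48 ± 0.09 (SE) missed the threshold (adjusted p = 0.204, edgeR). Lyz2, a lysozyme of myeloid cells, gave 0.48 ± 0.12, and Tyrobp, the signalling adaptor of TREM2, gave 0.32 ± 0.08 (log2 fold change with SE), with adjusted p of 0.982 and 0.9995 in edgeR. Both were picked after their values were seen. The members come from the same libraries and are not independent. Their summed level was 8803, 8120, 9713 and 10060 CPM in replicates 1 to 4 labelled Synpo-/-. In wildtype it ran from 6276 CPM over a median of 7521 CPM to 8722 CPM, so the groups overlapped. The 13 tested genes of homeostatic microglia summed to 743.4 to 1040 CPM and 721.1 to 1027 CPM, with a median log2 fold change of 0.06 and 0 called by edgeR, nor any at an unadjusted p under 0.05. Their median was 0.34 in control dentate gyrus, -0.13 in lesioned CA3 and 0.55 in control CA3. DESeq2 called Lgals3 in addition to Spp1.

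Of the remaining immune and glial lists, none had a called member in edgeR's test. Among 16 complement genes, whose products tag material for uptake, 5 were higher at an unadjusted p under 0.05, and the median log2 fold change was 0.21. For this list and those below, the share of all genes higher at that level was 2.11%. C3ar1, the receptor for the C3a fragment, gave 0.40 ± 0.10 (SE; adjusted p = 0.973, edgeR). The 14 chemokine genes had a median of 0.29 with 5 at an unadjusted p under 0.05, and the smallest p was that of Ccl2, a chemokine that attracts monocytes, at 0.77 ± 0.18 (log2 fold change with SE; adjusted p = 0.75, edgeR). Ccl2 was called without a filter on low counts and without Synpo-/- replicate 1. The 28 interferon-stimulated genes had a median of 0.17 with 2 at an unadjusted p under 0.05, and the 24 genes of reactive astrocytes a median of 0.21 with 6. Lcn2, lipocalin 2, gave 0.67 ± 0.18 and Gfap, the intermediate filament of astrocytes, 0.21 ± 0.13 (log2 fold change with SE; adjusted p = 0.9995 for both in edgeR), Gfap being picked after its value was seen. Genes of homeostatic astrocytes had a median of 0.06, and 0 of 17 reached an unadjusted p under 0.05 in edgeR's test. In control dentate gyrus, lesioned CA3 and control CA3, the medians were 0.33, -0.02 and 0.485 for complement and 0.50, 0.05 and 0.35 for chemokine genes. They were 0.29, 0.02 and 0.40 for interferon-stimulated genes and 0.11, 0.11 and 0.09 for those of reactive astrocytes.

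Neuronal lists likewise held no called gene. The 20 immediate early genes, which neurons switch on with activity, had a median log2 fold change of 0.33 with 1 at an unadjusted p under 0.05, Dusp1, a phosphatase that switches off MAP kinases, at 0.31 ± 0.13 (SE). Nr4a1 gave 0.67 ± 0.34 (SE). The list summed to 755.9 to 1202 CPM in libraries labelled Synpo-/- and to 504.1 to 1227 CPM in wildtype, so the groups overlapped. Its median was -0.12 in control dentate gyrus, 0.06 in lesioned CA3 and -0.29 in control CA3. Of all genes, 2.11% were higher at an unadjusted p under 0.05. Medians were below 0 for the 28 glutamate receptor genes at -0.07, the 12 GABA-A receptor genes at -0.18, the 24 postsynaptic scaffold genes at -0.09 and the 29 genes of synaptic vesicles and fusion at -0.03. Synpo-/- replicate 1, which was highest for summed myelin and reactive astrocyte genes, had the lowest sum of the 10 libraries in each of these 4 lists. Its sums were 3103, 1318, 2515 and 4904 CPM, and the next lowest were 3654, 1624, 2657 and 5609 CPM. Of these 4 lists, 3, 2, 3 and 3 members were lower at an unadjusted p under 0.05, beside 1.75% of all genes. One glutamate receptor gene was higher at that level, Grin2d, an NMDA receptor subunit, at 0.54 ± 0.18 (log2 fold change with SE; adjusted p = 0.9995, edgeR). Gabrb2, a GABA-A receptor subunit, gave -0.41 and Unc13c, a vesicle priming factor, -0.51 (log2 fold change; adjusted p = 0.9995 for both in edgeR).

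Genes that work with synaptopodin showed no called difference. The list of 22, with alpha-actinins, ryanodine and IP3 receptors, calcium pumps and store-operated channels, and Synpo itself, had a median log2 fold change of 0.02. Besides Synpo, Ryr3, a ryanodine receptor of intracellular calcium stores, had an unadjusted p under 0.05 at -0.34 ± 0.13 (log2 fold change with SE; adjusted p = 0.9995, edgeR). The 26 actin regulators had a median of 0.03, and Gsn, the actin-severing gelsolin, gave 0.40. Medians of the 77 cytosolic ribosomal protein genes, 75 respiratory chain genes and 38 proteasome genes were 0.05, 0.02 and 0.02.

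**Figure D4:**
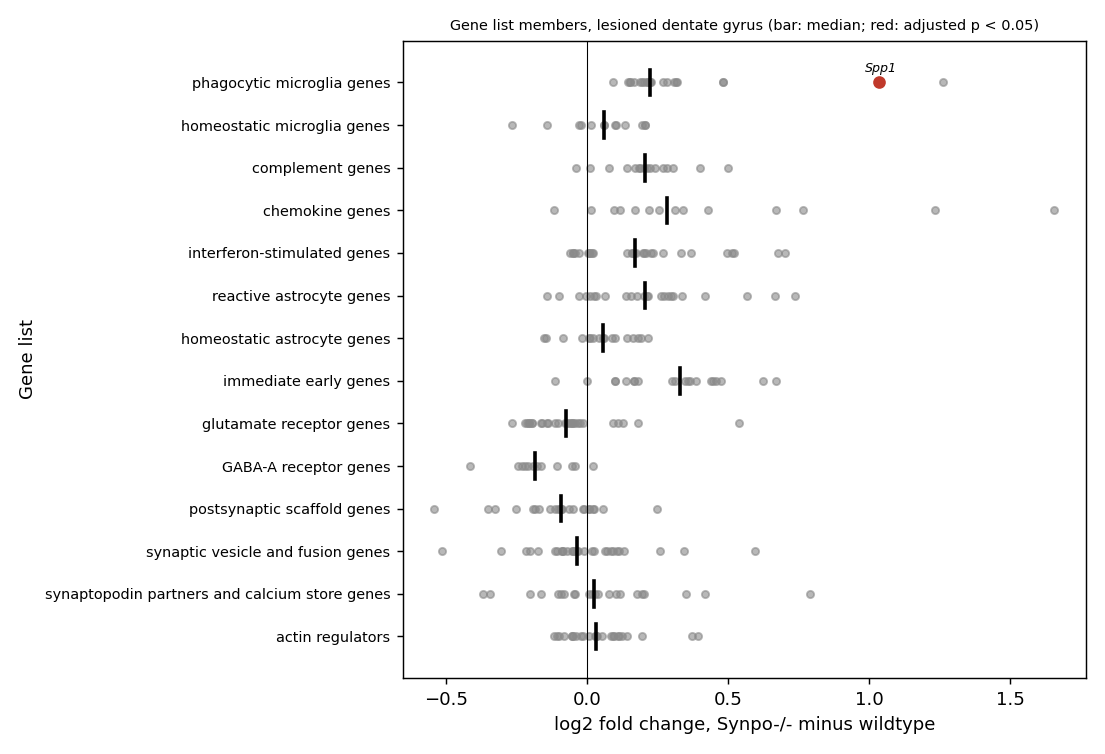
Log2 fold change (horizontal axis, libraries labelled Synpo-/- minus wildtype) of each tested member of the gene lists named on the vertical axis, in lesioned dentate gyrus. Black bars are list medians and the red point is Spp1, the one called member; the medians run from -0.18 for GABA-A receptor genes to 0.33 for immediate early genes.

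The summed levels of markers of other cell types overlapped between the groups. Summed myelin genes were at 511.1 to 1102 CPM and 561.8 to 797.7 CPM, and genes of endothelium and pericytes at 200.9 to 278.8 CPM and 192.4 to 260.1 CPM, in libraries labelled Synpo-/- and wildtype. Genes of fibroblasts and meninges were at 212.5 to 405.1 CPM and 180.5 to 293 CPM. Interneuron markers were at 1537 to 2615 CPM and 1706 to 1995 CPM. None of these lists had a called member. The ribosomal RNA gene CT010467.1, named after its value was seen, was at 2111 ± 828.9 CPM (SD, n = 4) and 4194 ± 1342 CPM (n = 6), a log2 fold change of -0.99 ± 0.26 (SE; adjusted p = 0.9995, edgeR), and it was called without a filter on low counts. The part of these levels in the calls was not tested.

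The same genotype difference was then measured in the dentate gyrus without lesion and in CA3, in 28 libraries that the comparison had not used. The labels do not say whether a dentate gyrus and a CA3 library came from the same culture. Y-linked genes exceeded Xist in 0 of 4 wildtype libraries of control dentate gyrus and in 0 of 2 of control CA3. Among those labelled Synpo-/- this was so in 3 of 7 and 2 of 6. No sex term was fitted in the separate comparisons of control dentate gyrus, lesioned CA3 and control CA3. All 8 called genes had the same direction in control dentate gyrus (7 Synpo-/- and 4 wildtype libraries), in lesioned CA3 (6 and 3) and in control CA3 (6 and 2). At an unadjusted p under 0.05 these were 7, 7 and 6 of the 8, beside 15.1%, 6.11% and 16.4% of all genes tested there. 1500015A07Rik was called in each of the 3 comparisons, at log2 fold changes of 1.21, 1.64 and 1.66. In lesioned CA3 this call was lost without wildtype replicate 1 or 2. Rnf168 was called in control dentate gyrus and in lesioned CA3, at -0.57 and -0.77, and gave -0.54 in control CA3 (adjusted p = 0.1, edgeR). Its call in control dentate gyrus was lost with the replicate number as a block and in 10 of 11 fits that left out a library, all but the one without Synpo-/- replicate 4. Its call in lesioned CA3 was lost without Synpo-/- replicate 3 and without each of the 3 wildtype libraries. In control dentate gyrus 5 of 23312 genes were called (0.0214%), in lesioned CA3 2 of 21869 (0.00915%) and in control CA3 17 of 23640 (0.0719%).

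With the 28 libraries in a single fit, region and lesion group being covariates, 23 of 25160 genes were called (0.0914%), which is a comparison added after the data were seen. Of all genes 11.7% had an unadjusted p under 0.05, as had 7 of the 8. The 23 calls held 6 of the 8 genes, 75% of the calls in lesioned dentate gyrus and 26.1% of the 23. The log2 fold changes were 1.48 for 1500015A07Rik, -0.62 for Rnf168, 1.85 for Gm4841, -0.87 for Afap1l1, 0.57 for Slc15a2 and -1.41 for Gm4951. F830016B08Rik, not called in lesioned dentate gyrus, was called here at -1.50 ± 0.26 (SE; adjusted p = 0.00956, edgeR). Spp1 gave 1.06 ± 0.25 (SE), near its value in lesioned dentate gyrus, at an adjusted p of 0.128 in edgeR's test. Ctla2a gave 0.36 ± 0.20 (SE; adjusted p = 0.475, edgeR), with 0.25 in control dentate gyrus, 0.65 in lesioned CA3 and 0.08 in control CA3. Synpo was called at 0.72 ± 0.11 (SE), again higher in the libraries labelled Synpo-/- (adjusted p = 0.00121, edgeR). With a sex term added to this fit 18 genes were called, and 16 of the 23 calls were kept.

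**Figure D5:**
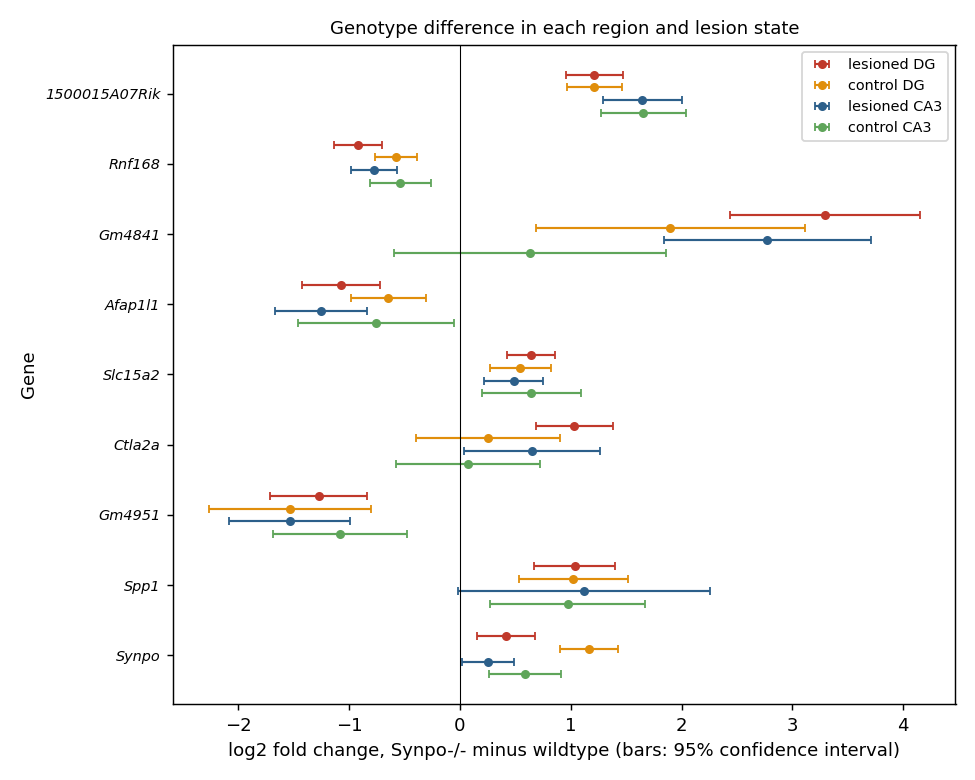
Log2 fold change (horizontal axis, libraries labelled Synpo-/- minus wildtype) with its 95% confidence interval for the 8 called genes and Synpo (vertical axis) in lesioned dentate gyrus, control dentate gyrus, lesioned CA3 and control CA3. All points of a gene lie on the same side of 0, and the intervals of Gm4841 and Ctla2a reach across 0 in control CA3, as do those of Ctla2a in control dentate gyrus and Spp1 in lesioned CA3.

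Whether the genotype difference itself changed with the lesion was tested as an interaction in the 21 dentate gyrus libraries. Y-linked genes exceeded Xist in 0 of 4 wildtype control libraries and in 3 of 7 labelled Synpo-/-. In lesioned libraries this was so in 3 of 6 and 2 of 4. No sex term was fitted, and the part of sex in the interaction was not tested. Of 24938 genes 1 was called (0.00401%), Eps8l1, an adaptor related to the EPS8 proteins that regulate actin. In lesioned dentate gyrus it was at 4.57, 4.10, 3.08 and 1.96 CPM in replicates 1 to 4 labelled Synpo-/- and at 1.10 to 3.03 CPM, with a median of 1.89 CPM, in wildtype, and the groups overlapped. Without lesion it was at 1.23 to 2.88 CPM in 7 libraries labelled Synpo-/- (median 2.12 CPM) and at 5.64, 8.21, 6.35 and 4.83 CPM in wildtype, with no overlap. Fitted separately, the genotype log2 fold change was 0.75 ± 0.31 (SE) with lesion and -1.70 ± 0.23 without. The interaction in the fit of all 21 libraries was 2.41 ± 0.40 (SE; adjusted p = 0.0474, edgeR). Its mean normalized count was below 300. Among lesioned libraries, the call was lost without Synpo-/- replicate 1, 2 or 3 or wildtype replicate 3, 4, 6 or 7, at adjusted p of 0.0747 to 0.255 in edgeR. Control libraries were not left out. None of the 8 genes had a called interaction. Rnf168 at -0.40 ± 0.14 and Afap1l1 at -0.47 ± 0.22 (SE) had an unadjusted p under 0.05, and the rest of the 8 did not. The adjusted p of both was 0.637 in edgeR's test. Ctla2a came to 0.73 ± 0.37 and Spp1 to -0.04 ± 0.31 (SE; adjusted p of 0.64 and 0.97, edgeR). For Synpo the difference was -0.79 ± 0.18 (SE; adjusted p = 0.637, edgeR) in the fit of 21 libraries, while the separate fits gave 1.16 without lesion and 0.42 with it.

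The genotype difference was compared between dentate gyrus and CA3 of lesioned cultures in the same way, over 19 libraries. edgeR called 0 of 25332 genes (0%), the smallest adjusted p being 0.214, and 961 had an unadjusted p under 0.05. DESeq2 called 1 gene, C1ql2, a complement-like protein of mossy fiber synapses that belongs to the 10 granule cell markers. In lesioned CA3 the median log2 fold change of these markers was 0.44, and DESeq2 called C1ql2 there as well. Prox1 was at 18.2 to 30.7 CPM in lesioned CA3 labelled Synpo-/- and at 13.96 to 19.2 CPM in wildtype. The part of granule cell RNA in the CA3 libraries was not tested. Of the 8 genes, Gm4841 gave 0.53 ± 0.67 and 1500015A07Rik -0.43 ± 0.22 (log2 difference with SE; adjusted p = 0.998 for both, edgeR).

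For scale, the lesion response of the 8 genes is given within each genotype of the dentate gyrus, in comparisons that share the lesioned libraries. No sex term was fitted here either, and Y-linked genes exceeded Xist in 0 of the 4 wildtype control libraries. Of all genes tested, 2016 of 22486 were called in the libraries labelled Synpo-/- (8.97%) and 3132 of 22715 in wildtype (13.8%). Spp1 rose by 1.79 in the former and by 1.85 in the latter on the log2 scale. Slc15a2 rose by 0.54 and 0.51. Ctla2a rose by 1.21 in the libraries labelled Synpo-/- and gave 0.51 in wildtype (adjusted p = 0.121, edgeR), and Rnf168 gave -0.22 and 0.19, called in neither. Of the 4 genes near Synpo, 1500015A07Rik fell by 0.35 in the libraries labelled Synpo-/- (adjusted p = 0.0272, edgeR) and gave -0.28 in wildtype (adjusted p = 0.203, edgeR). The other 3 were called in neither genotype. Their log2 fold changes after lesion, in libraries labelled Synpo-/- and in wildtype, were 0.82 and -0.51 for Gm4841, -0.19 and 0.30 for Afap1l1, and 0.68 and 0.49 for Gm4951.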

How the data were processed

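Regional libraries were made from polyadenylated RNA of 1 dissected dentate gyrus or CA3 each. Per the submitters' notes, the tools were cutadapt 3.5 for trimming, STAR 2.7.8a for mapping to mm10 and featureCounts 2.0.1 for counting per gene, unstranded. The authors deposited raw read counts per gene symbol. For the comparison, autosomal counts were fitted with edgeR 4.0.16 in R 4.3.3 (TMM, filterByExpr, quasi-likelihood test, Benjamini-Hochberg adjustment over all genes tested), calling genes at an adjusted p under 0.05. CPM were scaled by TMM over the 39 regional libraries. SE were the log2 fold change over the square root of the F statistic. Total counts set the precision, and PCR copies were not told apart from molecules.

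Members and the 43 gene lists were chosen with earlier results of these data known. Named genes are Synpo and Prox1, up to 12 protein-coding and 3 other called genes a direction by smallest p, up to 4 called members a direction of each list or else its 2 members of smallest p, up to 5 calls a direction of each interaction, and called genes within 10 Mb of Synpo. Neighbours of Synpo that were not called, genes that only DESeq2 called and those said to be picked later were named after their values were seen. The fits of the main comparison and of the interactions were run on simulated counts with the same spread setting for every gene. The spread of the real libraries was not simulated, so this run does not show how well the fits hold here. Alternatives were DESeq2 1.42.0, RLE size factors, other filters, limma 3.58.1 voom with sample weights, length and GC trends removed, a sex term, the replicate number as a block, all 4 dentate gyrus groups in 1 fit, and libraries left out 1 at a time. In the interactions only lesioned dentate gyrus libraries were left out, and in control CA3 only those labelled Synpo-/-. The sex term was fitted only in lesioned dentate gyrus and in the single fit of 28 libraries. The 24 co-immunoprecipitation and input libraries were not used.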

Additional observations from a re-analysis of the deposited data

Results flagged for a closer look

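In the genotype by lesion interaction of the dentate gyrus, the genotype difference of Eps8l1 in lesioned cultures lay 2.41 above that in control cultures on the log2 scale. Among 108 sets of libraries checked (levels of the called genes and summed lists, each in the 4 libraries labelled Synpo-/- or the 6 wildtype libraries), 6 held a library far from the others, and chance alone gives about 1 in 20. In Synpo-/- replicate 2 the summed choroid plexus and ependyma genes were at 10060 CPM, with the next library at 168.8 CPM. In wildtype replicate 3 they were at 7244 CPM, with the next at 2667 CPM. Mossy cell markers were at 16.03 CPM in Synpo-/- replicate 4 and interneuron markers at 1995 CPM in wildtype replicate 4, with the next libraries at 13.4 CPM and 1787 CPM. Synpo-/- replicate 1 was lowest for sodium and calcium channels, at 1638 CPM, and for genes within 10 Mb of Synpo, at 6549 CPM, with the next libraries at 1880 CPM and 7123 CPM.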

How the results depend on the processing

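In lesioned dentate gyrus 8 genes were called. Without a filter on low counts there were 14 (Mmp12, Spink8, Chchd10, Ccl2, CT010467.1 and BC023105 in addition), with a mean normalized count over 300 there were 4, with wildtype replicate 5 included 4, with all 4 dentate gyrus groups in one fit 4, and with voom 5. Leaving out each library gave 3 to 5. The replicate numbers did not pair the samples (r of deviations from -0.0416 to 0.134 over 4 pairs, own number best in 1), and with them as a replicate block 3 genes were called. 1500015A07Rik, Rnf168 and Gm4841 were called in all 10 fits without a library, Spp1 and Ctla2a in 2, Slc15a2 and Gm4951 in 1 and Afap1l1 in 0, but Rnf168 was lost with the block (adjusted p = 0.0637) and Gm4841 with voom (adjusted p = 0.399, limma) and under the limit of 300. The largest adjusted p over all alternatives was 0.9746 for Ctla2a, 0.861 for Gm4951, 0.405 for Afap1l1, 0.298 for Spp1, 0.17 for Slc15a2 and 0.023 for 1500015A07Rik, and no called gene changed direction under any alternative. The cause of these losses was not tested.

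For both interactions only the 10 lesioned dentate gyrus libraries were left out in turn. In the genotype by lesion interaction 2 genes were called by DESeq2, 2 without a filter, 0 with a mean over 300, 0 with the replicate block, and 0 to 1 without 1 of these libraries. In the genotype by region interaction the count was 1 by DESeq2, 1 without a filter and 0 without each of these 10 libraries. In control dentate gyrus DESeq2 called 217 genes, the block gave 3 and leaving out a library 2 to 585, the highest without Synpo-/- control replicate 4. In lesioned CA3 these were 20, 290 and 0 to 5, and in control CA3 691, 2240 and 1 to 87. Over the other 28 libraries DESeq2 called 75 genes, a sex term gave 18, 10 had a mean over 300, and leaving out a library gave 10 to 65.

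Genes that were not called changed sign as follows (log2 fold change): with wildtype replicate 5 included, Prox1 to 0.149 and Mog to -0.171; with length and GC trends removed, Prox1 to 0.00061; with the block, Calb1 to -0.0305 and Clic6 to -1.8; with voom, Clic6 to -0.0935; and without 1 library each, lowest to highest, Mog from -0.00393 to 0.395, Ccdc153 from -0.0794 to 0.54, Clic6 from -3.09 to 1.62 and Inhba from -0.106 to 0.695. With 4 and 6 libraries the median standard error was 0.20. A call took a difference several times the standard error of the gene. Differences well above 0.20 could thus stay uncalled, as 1.47 did at BC023105.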
